A study of Mus musculus with 9 samples.

Results

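The transcripts described here are 9 genes whose products mark neutrophils: S100a8 and S100a9, the granule genes Camp, Ngp, Mpo and Elane, and Retnlg, Stfa2l1 and Csf3r. They were taken by symbol, with 1 probe set per gene, from the 18193 genes that the arrays could name. Probe sets were named for 8 of the 9, and Retnlg, which encodes the resistin-like protein of mouse neutrophils, had none in the annotation used here and is not analysed. The arrays measured endothelial cells (ECs) sorted from whole lungs, in 3 groups of 3 arrays each. The metastatic DC101 group came from NSG mice that carried lung metastases of MDA-MB-231-LM2 cells, a metastatic derivative of a human breast cancer line, and were given DC101, an antibody against VEGFR2, at 40 mg/kg. The metastatic IgG group carried the same metastases and was given rat IgG. In both groups the cancer cells were injected into the tail vein at 6 to 8 weeks of age, the antibody was given on days 21 and 24, and lungs were taken on day 25. The healthy IgG group had no cancer cells and was age-matched and given rat IgG. All 3 groups were NSG mice, which lack mature T, B and NK cells and still have neutrophils, and all were female per the study's methods. Every metastatic array rests on 1 cancer cell line, and the labels call the arrays biological replicates and do not say whether each stands for 1 mouse. All p-values therefore describe the spread among these arrays, which may not be the spread between single mice.

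Neutrophils load their granules in steps as they mature. The proteases and peroxidase of the primary granules, Elane and Mpo, are transcribed in promyelocytes, and the proteins of the secondary granules, among them Camp and Ngp, in the later myelocytes. S100A8 and S100A9 pair in the cytosol as calprotectin, which binds calcium, zinc and manganese and signals to other cells when released. Csf3r is the receptor for G-CSF, the cytokine that drives neutrophil production, and Stfa2l1 belongs to the stefin A family of cysteine protease inhibitors. In the lung, neutrophils are held in the capillaries in close contact with the endothelium. The sort kept CD31+ cells and left out cells with CD45, CD11b, EpCAM, CD140a/b or the GFP made by the cancer cells, and neutrophils carry CD45 and CD11b.

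The genes S100a8 and S100a9 lie close together on mouse chromosome 3, and Camp and Ngp lie on chromosome 9. The 250 bases upstream of their start sites are shown because, of the measured transcripts, these pairs correlated most closely over the 9 arrays (S100a8 with S100a9, and Camp with Ngp). The sequences are from RefSeq (GRCm38.p6), read in the direction of the gene, and capitals mark matches on either strand to TTNNGNAA, a short form of the site bound by the C/EBP factors, or to GAGGAA, a short form of the site bound by PU.1. No matches overlapped. The upstream window of S100a8 spans chr3:90668821-90669070 on the plus strand, that of S100a9 chr3:90695722-90695971 on the minus strand, that of Camp chr9:109849457-109849706 on the minus strand and that of Ngp chr9:110419558-110419807 on the plus strand.
S100a8: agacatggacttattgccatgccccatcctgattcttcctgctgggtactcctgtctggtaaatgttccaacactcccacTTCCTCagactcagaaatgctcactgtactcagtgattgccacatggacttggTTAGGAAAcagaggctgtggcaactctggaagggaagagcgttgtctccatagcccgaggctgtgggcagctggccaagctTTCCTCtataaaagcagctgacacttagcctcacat
S100a9: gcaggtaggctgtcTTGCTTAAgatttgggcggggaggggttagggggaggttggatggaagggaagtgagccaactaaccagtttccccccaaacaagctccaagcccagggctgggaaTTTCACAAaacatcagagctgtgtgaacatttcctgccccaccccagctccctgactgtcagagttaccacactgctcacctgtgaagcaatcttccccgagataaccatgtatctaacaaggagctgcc
Camp: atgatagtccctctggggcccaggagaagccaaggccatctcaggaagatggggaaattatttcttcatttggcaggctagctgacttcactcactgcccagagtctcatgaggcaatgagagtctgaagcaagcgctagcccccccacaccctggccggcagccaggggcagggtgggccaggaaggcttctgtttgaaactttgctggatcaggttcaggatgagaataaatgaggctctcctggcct
Ngp: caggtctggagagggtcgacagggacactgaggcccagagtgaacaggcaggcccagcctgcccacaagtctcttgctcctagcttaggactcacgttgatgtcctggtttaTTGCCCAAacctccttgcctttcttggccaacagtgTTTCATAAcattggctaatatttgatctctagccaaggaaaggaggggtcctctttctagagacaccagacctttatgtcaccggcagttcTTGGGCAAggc

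The C/EBP letters were found in 1 place upstream of S100a8, at 117 to 110 bases before the start site, in 2 places upstream of S100a9 and in 3 places upstream of Ngp. The PU.1 letters were found in 2 places upstream of S100a8. Camp held neither in this window. Over all 9 genes, 5 held a C/EBP match and 5 a PU.1 match, against 36.8% and 23.3% of the 32851 mouse promoters of the same length. A match describes letters only and is not a measurement of binding.

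The cells carried the markers of endothelium on every array. The 14 pan-endothelial genes averaged 13.52 to 13.61 on DC101 arrays, 13.57 to 13.59 on metastatic IgG arrays and 13.63 to 13.64 on healthy arrays, on the deposited log2 scale, where the highest value was 14.84. Genes not expected in lung read 5.90 to 10.56. The top of this range was set by Prm1 and Gnat1, and the other genes of the list read at most 8.70. All values of the 8 measured transcripts, 5.93 to 9.56, lay inside the full range. None of the 8 was therefore shown to be above background, and differences are given on the log2 scale with no fold. The same limit holds for other genes named below whose values all lay inside that range. Among them are Lcn2, G0s2, Spi1, Csf2, Ppbp, C1qa, C1qb, C1qc, Ptprc and Itgam. On the first principal component (40.1% of the variance) all healthy arrays lay apart from all metastatic arrays. DC101 replicate 3 stood apart on the second, DC101 replicate 1 on the third and healthy replicate 3 on the fourth. The difference between the 3-prime and 5-prime control probe sets of Gapdh, a sign of RNA length, was 0.35 to 0.60 in DC101 arrays, 0.47 to 0.57 in metastatic IgG arrays and 0.69 to 0.77 in healthy arrays. It thus moved with metastasis, and its part in the results below was not tested.

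S100a8 (probe set 1419394_s_at) read 8.64, 8.98 and 8.34 on the DC101 arrays, 8.33, 8.79 and 9.08 on the metastatic IgG arrays and 7.97, 7.83 and 8.20 on the healthy arrays. Every metastatic array was above every healthy array, and both metastatic groups covered nearly the same range. S100a9 (1448756_at) read 9.31, 9.56 and 8.79 on the DC101 arrays, 8.96, 8.98 and 9.50 on the metastatic IgG arrays and 8.83, 8.70 and 8.80 on the healthy arrays. All metastatic IgG arrays were above all healthy arrays, whereas DC101 replicate 3 lay among the healthy arrays. The healthy arrays were close together for S100a9, with an SD of 0.07, against 0.39 in the DC101 group and 0.31 in the metastatic IgG group (n = 3 each).

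Camp (1419691_at), which encodes the antimicrobial peptide cathelicidin, read 7.86, 8.12 and 7.50 on the DC101 arrays, 7.90, 8.71 and 8.47 on the metastatic IgG arrays and 7.32, 7.21 and 8.26 on the healthy arrays. Ngp (1418722_at), the neutrophilic granule protein, read 8.12, 8.18 and 7.13 on the DC101 arrays, 7.95, 8.37 and 8.50 on the metastatic IgG arrays and 7.19, 7.32 and 8.04 on the healthy arrays. For both secondary granule genes the groups overlapped. Healthy replicate 3 lay among the metastatic IgG arrays, and for Ngp DC101 replicate 3 was the lowest of all 9 arrays.

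Stfa2l1 (1442339_at) read 6.15, 6.14 and 6.32 on the DC101 arrays, 6.38, 6.31 and 6.58 on the metastatic IgG arrays and 6.13, 6.05 and 5.93 on the healthy arrays. All these values lie near the bottom of the scale, and the healthy arrays were the lowest of the 3 groups without overlap, by a narrow margin to the DC101 arrays. Csf3r (1418806_at) read 7.21, 7.28 and 7.72 on the DC101 arrays, 7.19, 7.39 and 8.13 on the metastatic IgG arrays and 7.95, 7.22 and 7.29 on the healthy arrays. Each group held 1 array well above the other 2, and the groups overlapped.

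Mpo (1415960_at), the myeloperoxidase of primary granules, read 6.76, 7.07 and 6.76 on the DC101 arrays, 6.90, 7.23 and 6.97 on the metastatic IgG arrays and 6.96, 6.93 and 6.98 on the healthy arrays. Elane (1422928_at), neutrophil elastase, read 6.63, 6.66 and 6.81 on the DC101 arrays, 6.76, 6.82 and 6.82 on the metastatic IgG arrays and 6.69, 6.86 and 6.78 on the healthy arrays. The groups overlapped for both genes, with means that differed little.

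**Figure D1:**
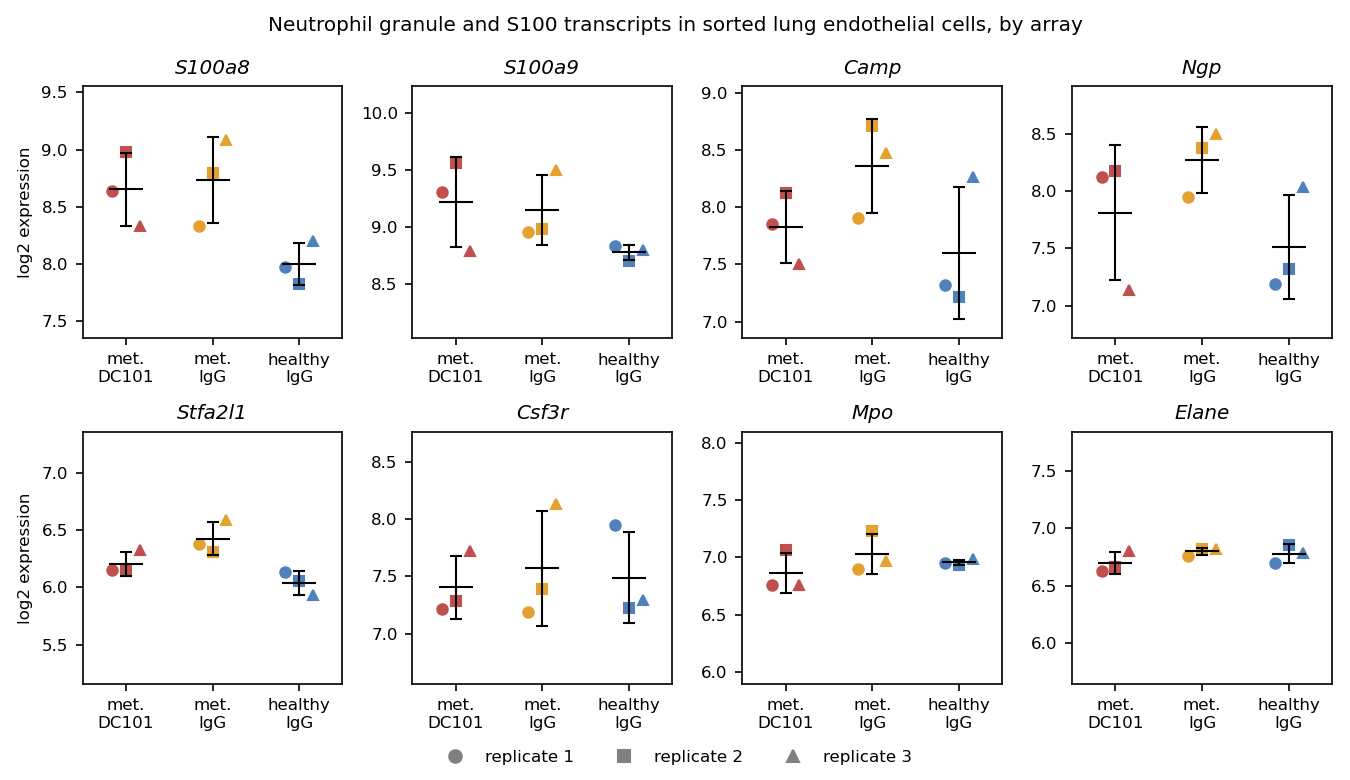
Log2 expression of the 8 measured transcripts on each array (symbols give the replicate number), with the group mean and SD (n = 3) as bars, for metastatic DC101, metastatic IgG and healthy IgG lungs; every panel spans the same width on the log2 axis. S100a8 was higher on every metastatic array than on any healthy array, and Mpo and Elane were nearly level.

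Metastatic IgG lungs against healthy lungs ask what changed in ECs with metastasis. No measured transcript of the 8 passed limma's test at an adjusted p of 0.05, where 6.53% of all genes did. At an unadjusted p under 0.05, 4 of the 8 were higher (S100a8, Camp, Ngp and Stfa2l1), against 10.3% of all genes that were higher. The arrays did not overlap for 3 of the 8, all higher (S100a8, S100a9 and Stfa2l1), against 13% of all genes. All 8 changes were above 0, as were those of 45.1% of all genes, and their median was 0.38, against -0.02 over all genes. On arrays of bulk RNA, a change in the number of cells of a type and a change in RNA per cell cannot be told apart.

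S100a8 averaged 8.73 ± 0.38 in metastatic IgG lungs and 8.00 ± 0.19 in healthy lungs (SD, n = 3 each), a difference of 0.73 (SE 0.20, 95% interval 0.26 to 1.21) with limma's adjusted p of 0.0819. S100a9 differed by 0.37 (SE 0.16, interval -0.01 to 0.74, limma adjusted p 0.241). Both are in the study's signature of secreted-protein genes, chosen for higher expression in ECs of lungs with metastases. The study drew it from a separate time course at week 3, not from these arrays. The transcripts described here were chosen with earlier results of these data known, so their direction is not independent evidence. Camp differed by 0.76 (SE 0.32, interval 0.01 to 1.51, limma adjusted p 0.228), and Ngp by 0.76 (SE 0.25, interval 0.17 to 1.35, limma adjusted p 0.133). Stfa2l1 differed by 0.39 (SE 0.11, interval 0.13 to 0.64, limma adjusted p 0.0913). The intervals of the receptor and of both primary granule genes spanned 0. Csf3r differed by 0.08 (interval -0.60 to 0.77), Mpo by 0.08 (interval -0.18 to 0.34) and Elane by 0.02 (interval -0.19 to 0.23).

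Single arrays decided the calls of this comparison. Without metastatic IgG replicate 1, S100a8 differed by 0.94 and passed the test (limma adjusted p 0.0335). Without healthy replicate 3, Ngp differed by 1.02 and passed it (limma adjusted p 0.0382), and Camp differed by 1.09 (limma adjusted p 0.0625). Stfa2l1 passed when the variance was moderated with a trend and robustly (limma adjusted p 0.0437). By the cutoffs the study used for its secreted-protein signature (a log2 change over 0.75 with an unadjusted p under 0.05 and an adjusted p under 0.25), Camp and Ngp passed, both higher, as did 3.32% of all genes.

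DC101-treated against IgG-treated metastatic lungs ask what blocking VEGFR2 changed. No measured transcript of the 8 passed limma's adjusted test, as did 0% of all genes, and at an unadjusted p under 0.05 none of the 8 passed either, against 6.65% of all genes. The groups overlapped for all 8, whereas 12.4% of all genes did not overlap. S100a8 averaged 8.65 ± 0.32 with DC101 and 8.73 ± 0.38 with IgG (SD, n = 3 each), a difference of -0.08 (SE 0.23, interval -0.62 to 0.46). S100a9 differed by 0.07 (SE 0.23, interval -0.47 to 0.61). These intervals leave room for a change in either direction. The sign of both values turned when single arrays were left out.

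Camp averaged 7.83 ± 0.31 with DC101 and 8.36 ± 0.41 with IgG, a difference of -0.53 (SE 0.24, interval -1.09 to 0.02, limma adjusted p 0.743). Ngp differed by -0.46 (SE 0.29, interval -1.14 to 0.22, limma adjusted p 0.797). Stfa2l1 differed by -0.22, Mpo by -0.17, Csf3r by -0.17 and Elane by -0.10, with limma adjusted p-values of 0.765 to 0.913. Of the 8 changes, 7 were below 0 and 1 above, where 45.4% of all genes were above 0. The median was -0.17, against -0.02 over all genes.

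DC101-treated metastatic lungs were also set against healthy lungs, with the same healthy arrays as before. No measured transcript of the 8 passed limma's adjusted test, where 2.42% of all genes did, and S100a8 was the only transcript to pass at an unadjusted p under 0.05, higher with DC101 as were 7.07% of all genes. S100a8 differed by 0.65 (SE 0.18, interval 0.22 to 1.08, limma adjusted p 0.131) and S100a9 by 0.44 (SE 0.19, interval -0.01 to 0.89, limma adjusted p 0.307). Camp differed by 0.23 (interval -0.46 to 0.92) and Ngp by 0.30 (interval -0.47 to 1.07). Stfa2l1 differed by 0.17, Csf3r by -0.08, Mpo by -0.09 and Elane by -0.08. The arrays did not overlap for 2 of the 8, S100a8 and Stfa2l1, both higher with DC101, against 9.44% of all genes. The median change was 0.20, against -0.04 over all genes.

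**Figure D2:**
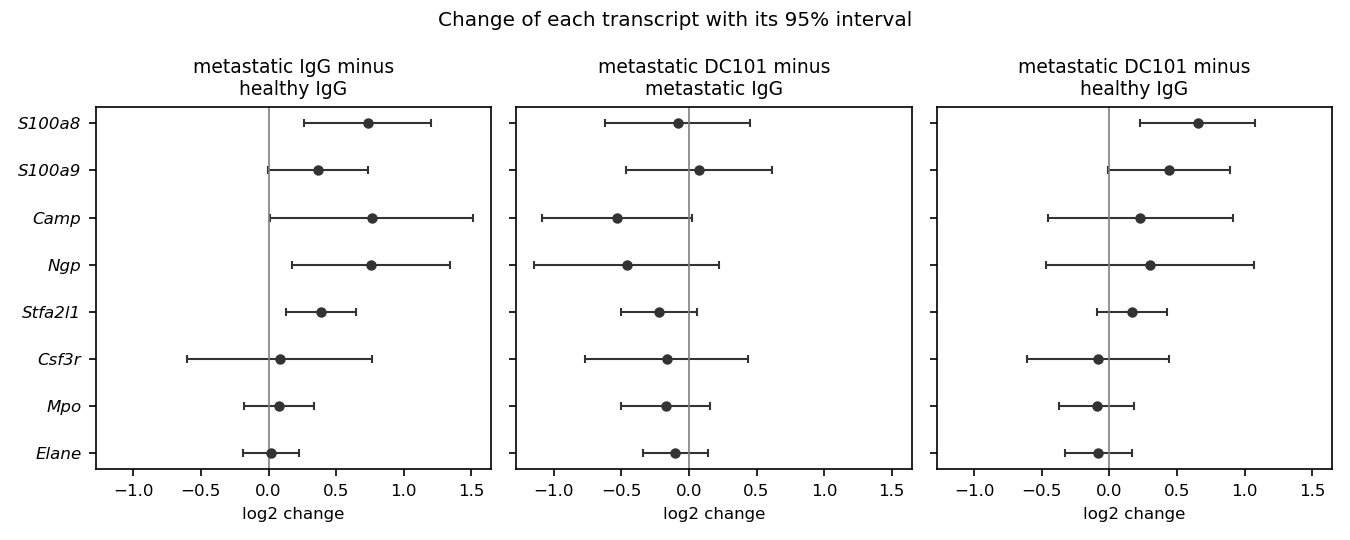
Log2 change of each transcript with its 95% interval from limma (3 arrays per group) in the 3 comparisons. The intervals of S100a8, Camp, Ngp and Stfa2l1 lay above 0 in metastatic IgG minus healthy lungs (lower bounds 0.26, 0.01, 0.17 and 0.13), and every interval crossed 0 in DC101 minus IgG.

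The spread between arrays had an order of its own. Within the DC101 group, replicate 2 was the highest array for S100a8, S100a9, Camp, Ngp and Mpo, and replicate 3 the lowest for S100a8, S100a9, Camp and Ngp. Within the metastatic IgG group, replicate 1 was the lowest array for 7 of the 8, all but Stfa2l1. In the healthy group, replicate 3 was the highest array for S100a8, Camp, Ngp and Mpo. Ngp deviated from its group mean by -0.68 on DC101 replicate 3 and by 0.52 on healthy replicate 3, and Camp by 0.66 on healthy replicate 3. Ngp's SD of 0.59 in the DC101 group was above that of 97.3% of all genes there, and Camp's SD of 0.58 in the healthy group above that of 97.9%.

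**Figure D3:**
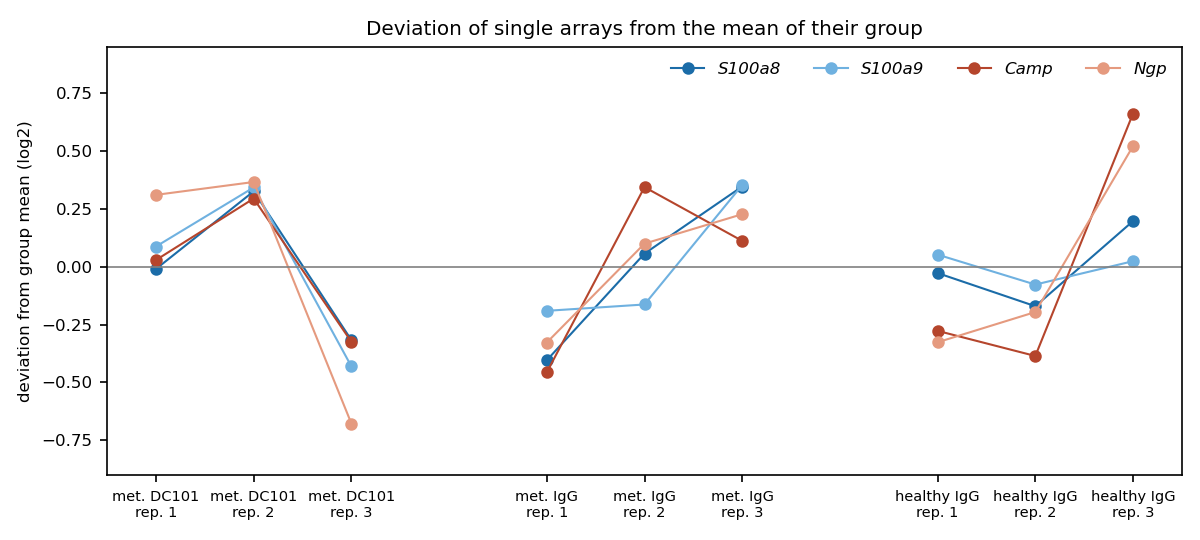
Deviation of each array from the mean of its group (log2), for S100a8, S100a9, Camp and Ngp, with lines joining the arrays of a group only to guide the eye. All 4 genes were below their mean on DC101 replicate 3 (Ngp by 0.68) and on metastatic IgG replicate 1, and Camp and Ngp were far above it on healthy replicate 3 (0.66 and 0.52).

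These genes shared the arrays on which they were high or low. Over the 9 arrays S100a8 and S100a9 correlated with r = 0.88, and with r = 0.85 after group means were removed. For Camp and Ngp r was 0.91, and 0.86 after group means were removed. S100a8 correlated with Ngp at r = 0.82 and with Camp at r = 0.78. Csf3r went with Stfa2l1 within groups (r = 0.87) and not with S100a8 (r = 0.27), and Elane ran slightly against S100a9 (r = -0.50). These values are descriptions over 9 arrays that share their sorting and labelling, so genes of the same array are not independent.

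The 8 transcripts and genes with only clone or provisional symbols were left out of a search for similar patterns. Among the 2962 other genes that ranged over more than 1 log2 unit, those with the most similar pattern are given here. They were picked for the highest r over 9 arrays, so their r values are raised by the choice and were not tested. For S100a8 these were Lif, a cytokine of the IL-6 family (r = 0.97), Ttc39b (0.94), Slc7a5, an amino acid transporter (0.93), Abcb1b, a drug efflux pump (0.93), and Nlrc5 (0.92). For S100a9 they were Fbxw10 (0.94), Slc7a5 (0.93), Abcb1b (0.91), Lox, a collagen cross-linking enzyme (0.89), and Zfp52 (0.87). None of these is a granule gene, but Camp, Ngp, Mpo and Elane were left out of the search and could not appear. For the mean standardised value of the 8 transcripts they were Morc1 (0.92), Disp1 (0.92), Dclk1 (0.88), Lap3 (0.87) and Panx1 (0.87).

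The wider neutrophil lists, which include the transcripts above (Camp and Ngp among the secondary granule genes, Mpo and Elane among the primary granule genes, Csf3r among the receptors, Stfa2l1 in the stefin cluster, S100a8 and S100a9 in the S100 family), gave calls in both directions. Over all genes 3.93% rose and 2.6% fell in metastatic IgG against healthy lungs. Of 9 secondary granule genes, Lcn2 rose and Chil3 fell in metastatic IgG lungs, and 7 did not pass. Lcn2, the iron-sequestering lipocalin, read 10.34, 10.08 and 9.72 with DC101, 9.96, 10.17 and 10.09 in metastatic IgG lungs and 8.19, 8.79 and 9.16 in healthy lungs. All metastatic arrays were above all healthy ones. Lcn2 rose by 1.36 in metastatic IgG lungs (SE 0.23, limma adjusted p 0.0189), and with DC101 it differed from healthy by 1.33 (limma adjusted p 0.0519). Its call was kept in 2 of 6 fits that each left out 1 array and was lost without metastatic IgG replicate 1, 2 or 3 or healthy replicate 2. Chil3, a chitinase-like protein also made by alveolar macrophages, fell by 1.41 in metastatic IgG lungs (SE 0.21, limma adjusted p 0.0108) and did so in all 6 such fits. Ltf, lactoferrin, differed by 0.25 (limma adjusted p 0.534).

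The primary granule genes gave no call, and the late genes gave 1. None of 6 measured primary granule genes passed limma's test or an unadjusted p under 0.05 in metastatic IgG against healthy lungs, and their median change was 0.05. The largest was that of Ms4a3 (-0.17, limma adjusted p 0.547). Of 9 tertiary granule and late genes, G0s2, an inhibitor of fat breakdown that many tissues express, fell by 1.36 in metastatic IgG lungs (SE 0.17, limma adjusted p 0.00582) and by 1.11 in DC101 lungs (limma adjusted p 0.0412) against healthy lungs. The first call was kept in all 6 fits that left out 1 array and the second in 1 of 6, lost without DC101 replicate 1 or 3 or any healthy replicate. Mmp9, gelatinase B, differed by -0.68 (limma adjusted p 0.17) and Mmp8, neutrophil collagenase, by -0.01. Slfn4 differed by 0.74 (limma adjusted p 0.196) and Mcemp1 by 0.41 (limma adjusted p 0.239). Of the 9 changes, 2 were above 0 and 7 below, where 45.1% of all genes were above 0. In the stefin A cluster, Stfa3 differed by 0.25 and Csta1 by -0.13, and no call was made among 3 measured genes.

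Receptors and transcription factors of the lineage gave 1 called gene. Among 8 measured neutrophil receptors no call was made, and the median change was -0.14. Pilra differed by -0.45, Cxcr2, the receptor for CXCL1, by 0.34 and Il1r2, the decoy receptor for IL-1, by -0.30, with limma adjusted p-values of 0.101 to 0.423. Of 5 measured granulocyte transcription factors, Spi1, which encodes PU.1, fell by 0.75 in metastatic IgG lungs (SE 0.13, limma adjusted p 0.0204) and by 1.01 in DC101 lungs (SE 0.10, limma adjusted p 0.00534) against healthy lungs. The call with DC101 was kept in all 6 fits that left out 1 array, and that with IgG in 2 of 6, lost without metastatic IgG replicate 2 or any healthy replicate. Cebpa, Cebpb, Cebpd and Gfi1 were not called.

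The S100 family held values on both sides of 0. Of 14 listed genes with a probe set, among them S100pbp, which encodes a binding partner and no S100 protein, 2 fell, S100a1 by 0.64 and S100a13 by 0.56 (limma adjusted p 0.014 for both), none rose, and the median change was -0.01. S100a1 read 12.11, 12.19 and 11.83 with DC101, 12.16, 11.97 and 11.87 in metastatic IgG lungs and 12.65, 12.64 and 12.63 in healthy lungs, without overlap. Without healthy replicate 1 the calls of S100a1 (limma adjusted p 0.0588) and S100a13 were lost, and that of S100a13 also without metastatic IgG replicate 3. S100a6 differed by 0.71 (SE 0.26, limma adjusted p 0.173). Whether S100a8 differed from the other members of the family was not tested.

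Among 7 genes for receptors and binding partners of S100A8 and S100A9, Ager, the receptor RAGE and a marker of alveolar epithelium, fell by 1.49 in metastatic IgG lungs (SE 0.23, limma adjusted p 0.0139), lost only without healthy replicate 1 among the fits that left out 1 array. Tlr4 differed by 0.12 (limma adjusted p 0.793). Of 10 lung epithelial genes 6 fell (Ager, Sftpa1, Hopx, Cldn18, Sftpc and Sftpd), but 3 to 5 of the 10 fell in the 6 fits that left out 1 array. Sftpa1 fell in all of them. Hopx was lost without healthy replicate 1, Cldn18 without metastatic IgG replicate 1 or 2 or healthy replicate 2, Sftpc without metastatic IgG replicate 1 or 3 or any healthy replicate, and Sftpd without any metastatic IgG replicate or healthy replicate 2 or 3. The mean of the 10 was 9.11 to 10.13 on DC101 arrays, 9.13 to 9.38 on metastatic IgG arrays and 9.80 to 10.35 on healthy arrays. Their part in the change of Ager was not tested.

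Of 10 genes for neutrophil attractants and growth factors, Cxcl1 and Csf2 rose and Ppbp fell in metastatic IgG lungs. Cxcl1 rose by 0.88 (SE 0.18, limma adjusted p 0.0325), a call kept in 1 of 6 fits that left out 1 array and lost without metastatic IgG replicate 1 or 3 or any healthy replicate, and by 0.87 in DC101 lungs (limma adjusted p 0.0197), a call kept in 2 of 6 and lost without DC101 replicate 2 or 3 or healthy replicate 1 or 2. Csf2, which encodes GM-CSF, read 7.32, 7.56 and 8.05 with DC101, 8.24, 7.96 and 8.11 in metastatic IgG lungs and 7.30, 7.16 and 7.25 in healthy lungs. It rose by 0.87 in metastatic IgG lungs (SE 0.10, limma adjusted p 0.0055) and did so in all 6 such fits. All Csf2 values lay inside the range of genes not expected in lung, so its expression was not shown to be above background. Csf3, which encodes G-CSF, differed by 0.05 (limma adjusted p 0.912). Ppbp, a platelet chemokine, fell by 1.65 (limma adjusted p 0.00333), in all 6 such fits, and so did the platelet gene Pf4. Tubb1, a tubulin of platelets, fell as well, a call lost without metastatic IgG replicate 1 or any healthy replicate.

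**Figure D4:**
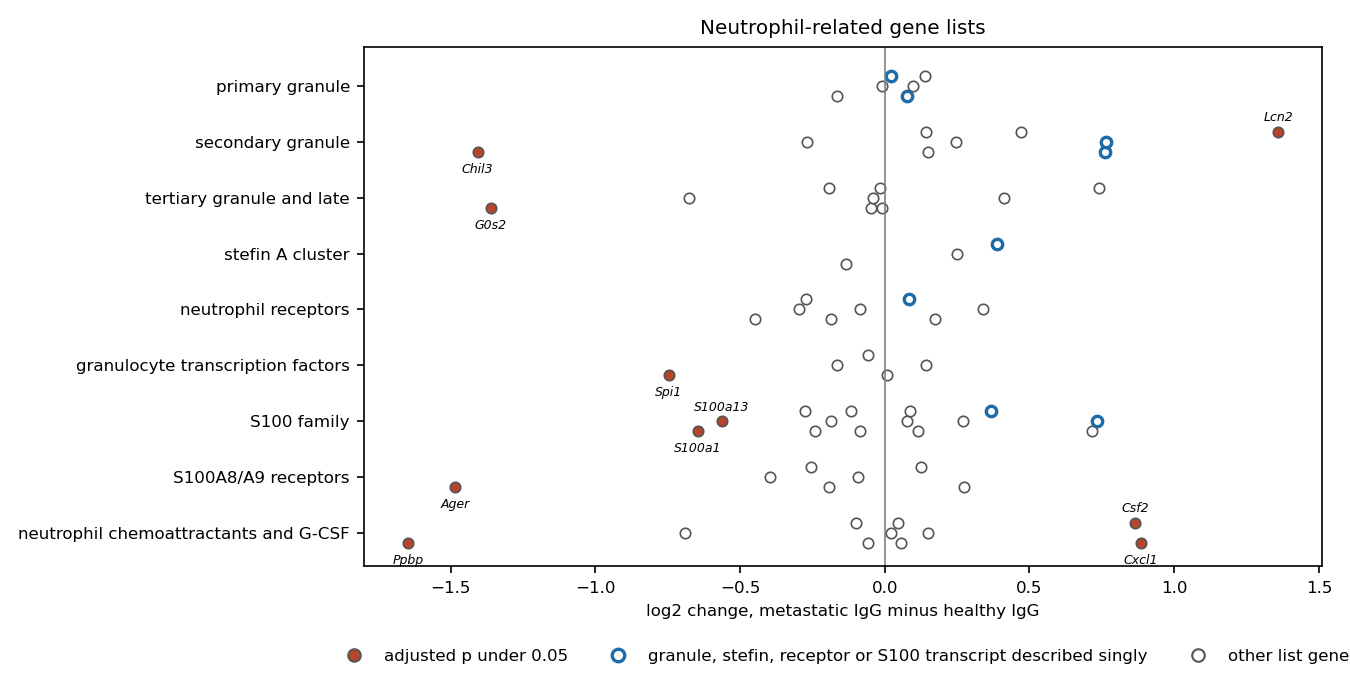
Log2 change in metastatic IgG minus healthy lungs for every measured gene of the neutrophil-related lists, each point a gene, filled where the limma adjusted p was under 0.05. Filled points lay on both sides of 0 (Lcn2 at 1.36, Chil3 at -1.41), and none of the 8 transcripts with a blue outline was filled.

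Markers of the cells that the sort should remove were set beside these values. Ptprc, which encodes CD45, read 8.01, 8.67 and 8.08 with DC101, 8.61, 8.20 and 8.17 in metastatic IgG lungs and 9.28, 8.90 and 8.85 in healthy lungs. Against healthy lungs it differed by -0.68 in metastatic IgG lungs (limma adjusted p 0.0614) and by -0.76 in DC101 lungs (limma adjusted p 0.123), opposite in sign to S100a8. Itgam, which encodes CD11b, read 6.73, 6.51 and 6.63 with DC101, 6.44, 6.58 and 7.59 in metastatic IgG lungs and 7.19, 7.38 and 6.36 in healthy lungs, with no order between the groups. All values of Ptprc and Itgam lay inside the range of genes not expected in lung, so neither was shown to be above background. The 16 measured macrophage and monocyte genes averaged 8.78 to 9.21 on DC101 arrays, 9.05 to 9.13 on metastatic IgG arrays and 8.84 to 8.94 on healthy arrays. In metastatic IgG lungs 4 of them rose (C1qa, C1qb, C1qc and Mrc1) and Itgax fell. Each of the 4 calls was kept in 1 or 2 of 6 fits that left out 1 array and was lost without metastatic IgG replicate 1, without healthy replicate 1 and without other single arrays, and that of Itgax was lost without healthy replicate 2 or 3. How much of the S100a8, S100a9, Camp and Ngp signal came from residual neutrophils or macrophages was not tested.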

How the data were processed

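ECs of 9 samples (3 groups of 3) were measured on Affymetrix Mouse Genome arrays after 3-prime labelling of picogram amounts of RNA. The deposited values are log2 expression values, 1 column per array, which the authors normalized by RMA in Chipster; RMA equalises the arrays, so changes in total RNA cannot be seen and changes near the floor are understated. Its log base is unstated and was taken as 2, as RMA gives. Of 45101 probe sets, 34945 had 1 gene symbol, 932 several and 9160 none in the annotation used; control probe sets (64) were left out. Each of 18193 genes was represented by its brightest probe set on average (all arrays). Each comparison was fitted on its 6 arrays with limma 3.58.1 (R 4.3.3; lmFit, eBayes), with Benjamini-Hochberg adjustment over all genes and calls at an adjusted p under 0.05. The fit was tested on simulated data. The number of arrays limits the precision.

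The members and lists were chosen with earlier results of these data known. All 9 members were reported. From each list, called genes could be named, and otherwise up to 4 with the largest changes in metastatic IgG minus healthy lungs; Ltf, Mmp8, Tlr4, Csf3, Cxcr2, Itgam and other single genes were added for their role. The S100a8 probe set is of a type that can also bind related transcripts. Replicate numbers did not pair the arrays. Alternatives were other scalings, filters and moderation, all 9 arrays in 1 fit, a replicate block, the study's cutoffs and leaving out each array; for called list genes these were added after seeing the data. Promoters were taken from RefSeq. Retnlg had no probe set.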

Additional observations from a re-analysis of the deposited data

How the results depend on the processing

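Of 312 values for the 8 transcripts under alternatives, 296 kept their direction and their side of the threshold, 3 passed it (S100a8, Ngp and Stfa2l1, given above), 0 lost a call and 13 changed sign, all on leaving out 1 array. Leaving out arrays, the values in metastatic IgG minus healthy lungs ranged from -0.20 to 0.31 for Csf3r, -0.023 to 0.14 for Mpo and -0.022 to 0.061 for Elane. In DC101 minus metastatic IgG they ranged from -0.28 to 0.091 for S100a8, -0.10 to 0.29 for S100a9 and -0.36 to 0.12 for Csf3r, and in DC101 minus healthy lungs from -0.24 to 0.15 for Csf3r.

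The number of called transcripts in metastatic IgG minus healthy lungs was 1 with trend and robust moderation, 2 by the study's cutoffs (Camp and Ngp) and 0 to 1 on leaving out an array. It was 0 in the other comparisons. On leaving out an array, the median of the 8 ranged from 0.25 to 0.45, -0.26 to -0.10 (DC101 minus metastatic IgG) and 0.10 to 0.28 (DC101 minus healthy). With bright genes only, which left 1 transcript, S100a9, the value was 0.37, 0.07 and 0.44 in the same order. The sign thus turned in DC101 minus metastatic IgG. Of all genes, 1188 were called in metastatic IgG minus healthy lungs, 689 with a replicate block, 376 without variance moderation and 556 to 759 on leaving out an array. In DC101 minus healthy lungs 440 were called, 662 with all 9 arrays in 1 fit, 247 with a replicate block, 14 without moderation and 110 to 361 on leaving out an array. In DC101 minus metastatic IgG none was called by limma, with 1209 at an unadjusted p under 0.05, and 0 to 0 on leaving out an array. Leaving out arrays also leaves fewer in the fit, and the cause of the other shifts was not tested.

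Same-numbered arrays deviated together with r of -0.05 to 0.08, so the replicate block rests on a shared number only. It changed no call among the 8 transcripts. S100a8 had no value without probe set types s and x. Of 29 calls among the other list genes, 26 were lost without variance moderation, 9 with the replicate block (Chil3, S100a13 and Cxcl1 in metastatic IgG lungs among them), 4 with all 9 arrays in 1 fit, 3 without probe set types s and x (Cxcl1 in both comparisons), 3 after scaling to pan-endothelial genes and 22 on leaving out at least 1 array. These were chosen after seeing the data. The number of arrays limits the precision.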
